A study of Homo sapiens with 15 samples.

Results

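The genes described here are the human integrin, laminin and collagen chains: every protein-coding gene of the deposited table whose symbol is that of an integrin alpha or beta chain, a laminin alpha, beta or gamma chain, or a collagen alpha chain. Of the 58676 genes in the table, 82 met this rule: 18 integrin alpha, 8 integrin beta, 12 laminin and 44 collagen genes. Expression was measured by RNA sequencing of total RNA in PATU-8988T, a long-used line of human pancreatic carcinoma cells. The 15 libraries formed 5 groups of 3: cells given 0.1% DMSO, 100 nM THZ1 for 4 h or 24 h, and 100 nM YKL-5-124 for 4 h or 24 h. The series calls both compounds CDK7 inhibitors. THZ1 is known to bind CDK12 and CDK13 as well, while YKL-5-124 was made to spare them. CDK7 is a kinase of the general transcription factor TFIIH. The labels give the DMSO cells no time, so the same 3 libraries were the control at both times, and the 4 comparisons with DMSO share them. They also number the replicates without saying whether cultures were separate, so p-values reflect only the variation among these libraries, which may be technical.

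Integrins are cell-surface receptors made of 1 alpha and 1 beta chain, which bind proteins of the extracellular matrix outside the cell and, through talin, kindlin and other adaptors, the actin or keratin cytoskeleton inside it. Laminins are secreted trimers of 1 alpha, 1 beta and 1 gamma chain, and with type IV collagen they form the basement membrane on which epithelial cells sit. Collagens are trimers of alpha chains wound into a triple helix, and they include fibril-forming, network-forming, fibril-associated and membrane-spanning types. In pancreatic cancer much of the fibrillar collagen comes from fibroblasts and stellate cells, while the carcinoma cells themselves make laminins and carry the integrins that bind them.

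The libraries held 15567057 to 22869590 counts. A member passed the filter on low counts if it reached about 10 counts in enough libraries, and 44 of the 82 did (11 integrin alpha, 5 integrin beta, 9 laminin and 19 collagen genes). The other 38 are accounted for at the end. Counts were scaled by TMM, which sets libraries level by the bulk of genes, taken as unchanged on average. Values are given as CPM, in which counts are divided by the effective size, the library total multiplied by its TMM factor. The effective size was 8280427 for 15567057 counts in THZ1 24 h replicate 1, and 22520289 for 19651529 counts in DMSO replicate 1. CPM thus do not add up to the same sum in every library and are not shares of its counts. A gene is called higher or lower where edgeR's quasi-likelihood test, adjusted by Benjamini-Hochberg over all 14461 genes tested, gave a value under 0.05. Changes are log2 fold changes on the TMM scale, given with the SE of the fit. The make-up of the THZ1 24 h libraries differed most: messages of ribosomal proteins took 20.8% to 23.1% of counts, against 9.05% to 11.6% in DMSO, and the TMM factors were 0.532 to 0.559. Directions at THZ1 24 h depend on the scaling, and each is given with the scalings that turn it. Keratins KRT8 and KRT18 were high in DMSO (1062 and 437 CPM), as were VIM and ZEB1 (168 and 24.3 CPM), while KRT19, a ductal keratin, had 3 counts in all 15 libraries and CDH1, the epithelial cadherin, 0.237 CPM in DMSO. Of 8 fibroblast and stellate markers ACTA2 was highest, at 1.61 CPM in DMSO and 650 counts in all libraries, the members COL1A1 and COL1A2 had 340 and 93 counts, and DCN, LUM, PDGFRA, PDGFRB and THY1 had 5, 9, 39, 24 and 22.

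In DMSO the set was led by receptors and chains of laminin binding. Compared per kilobase of exon, ITGB1 was highest at 132 ± 5.62 CPM per kilobase (SD, n = 3 libraries), followed by ITGA6 at 88.1 ± 6.22 and ITGA3 at 49.9 ± 16.2. The highest matrix genes were LAMC1 (21.5 ± 4.17), LAMB3 (19.5 ± 0.633) and COL12A1 (12.1 ± 5.55), and the next collagen, COL6A1, stood at 1.55 ± 0.710. LAMC1 and LAMB3 did not differ beyond their spread, nor did LAMB3 and ITGAV (18.9 ± 1.21). All 82 genes together took 0.334% ± 0.0670% of the counts in DMSO, and ITGB1 alone held 28.6% of that.

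**Figure D1:**
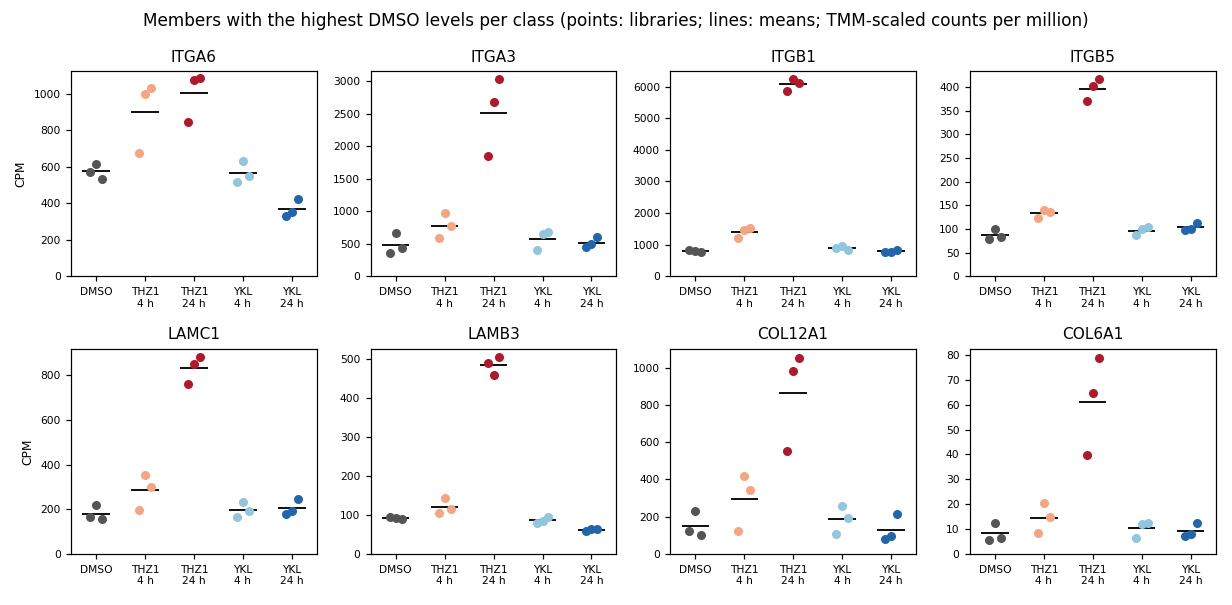
TMM-scaled CPM (y axis, from 0) of the 2 members of each class with the highest DMSO level per kilobase, in the 15 libraries (points; lines are group means, n = 3). In all 8 panels the 3 libraries of THZ1 24 h lie above the 3 DMSO libraries on this scale, while those of ITGA6 and LAMB3 after 24 h of YKL-5-124 lie below. Against ribosomal protein mRNAs ITGA6 is called lower than DMSO at THZ1 24 h (log2 -1.39), and with library totals it is below DMSO without a call. Against ribosomal protein mRNAs the log2 values of ITGB5 (-0.034) and LAMC1 (-0.020) at THZ1 24 h and LAMB3 (0.039) at YKL-5-124 24 h change sign but lie near 0, uncalled.

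After 24 h of THZ1 most of the measured genes were higher: 31 of 44 rose and 4 fell on the TMM scale, where 32.3% of all genes tested were called higher and 44.0% lower. The median log2 fold change of the 44 genes was 1.98, and that of all genes tested was -0.37. By class, 5 of 5 integrin beta, 8 of 9 laminin, 7 of 11 integrin alpha and 11 of 19 collagen genes rose. Of the 31, COL4A1, COL11A2 and ITGAL passed the filter on low counts only through libraries of groups in which they were called higher, so their calls carry no weight. The 4 that fell were COL27A1, COL4A2, ITGA5 and LAMA2. Scaled by library totals, 21 members were higher and 8 lower, with 15.7% and 64.9% of all genes. Measured against ribosomal protein mRNAs, 2 were higher (ITGB1 among them) and 12 lower, with 3.98% and 81.0% of all genes. These scalings moved the median of all genes by -1.13 and -2.19 on the log2 scale, and RLE and upper-quartile factors moved it by 0.32 and 0.39.

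The share of a library's counts uses no such factor, but like scaling by library totals it depends on what the rest of the library holds. The 82 genes took 0.299%, 0.411% and 0.292% of the counts in the 3 DMSO libraries, 0.340%, 0.534% and 0.482% after 4 h of THZ1 and 0.662%, 0.789% and 0.849% after 24 h. The lowest THZ1 24 h library thus lay above the highest DMSO library. ITGB1 alone held 28.6% of the set's counts in DMSO and 43.3% at THZ1 24 h. After YKL-5-124 the shares were 0.302%, 0.408% and 0.377% at 4 h and 0.315%, 0.330% and 0.427% at 24 h, which overlapped DMSO. Integrin beta genes moved furthest, from 0.106% ± 0.00925% to 0.353% ± 0.0192% (SD, n = 3), and 93.5% of their counts at THZ1 24 h were ITGB1. Laminins went from 0.0507% ± 0.0140% to 0.115% ± 0.0143%, integrin alpha genes from 0.155% ± 0.0326% to 0.243% ± 0.0437%, and collagens from 0.0227% ± 0.0116% to 0.0553% ± 0.0187%. With 3 libraries a side an exact permutation test cannot reach the threshold, since its smallest two-sided p is 0.1, and these shares are a description.

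**Figure D2:**
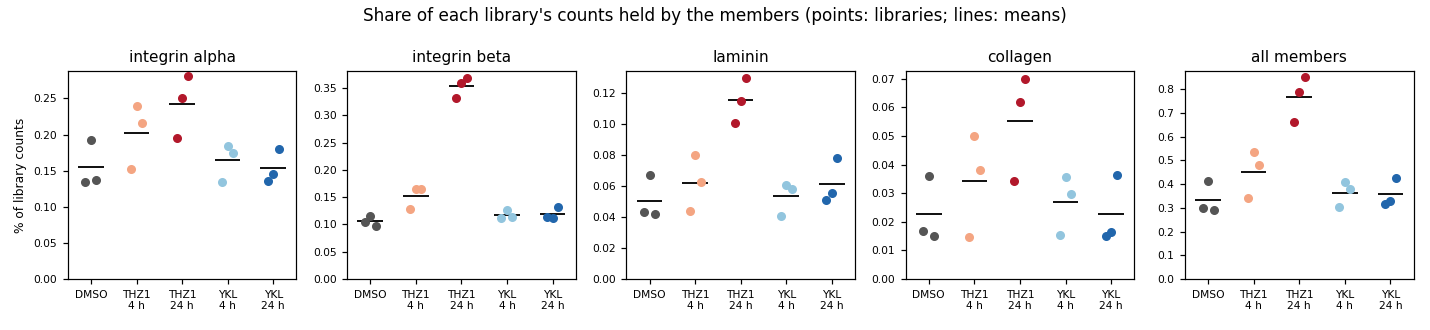
Share of each library's counts (y axis, percent, from 0) held by each class and by all 82 genes, in 15 libraries (points; lines are group means, n = 3). For all genes together the 3 THZ1 24 h libraries (0.662% to 0.849%) lie above every other library shown, and the integrin beta and laminin panels separate THZ1 24 h from DMSO as well; the collagen panel overlaps DMSO at its lowest THZ1 24 h library (0.0343%).

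**Figure D3:**
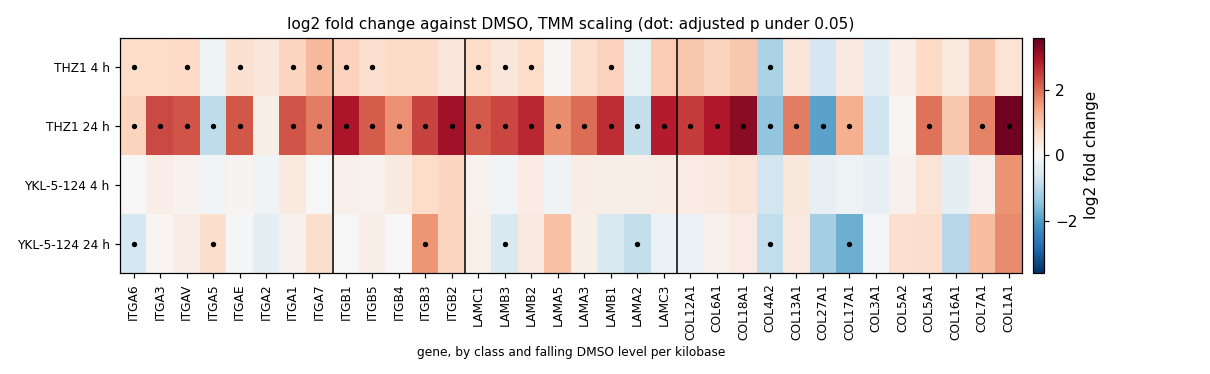
Log2 fold changes against DMSO on the TMM scale (colour) of 34 genes whose mean reached 1 CPM, in columns by class and falling DMSO level, for both compounds and times in rows; black dots mark an adjusted p under 0.05. The THZ1 24 h row is mostly red with dots, the YKL-5-124 4 h row has no dot, and against ribosomal protein mRNAs most of the red THZ1 24 h values lie near or below 0, as the plot of scalings shows.

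Among the integrin beta chains, ITGB1 had the clearest change. ITGB1, the common partner of most alpha chains, measured 821, 796 and 754 CPM in DMSO, 1199.8, 1459 and 1523 at THZ1 4 h and 5849, 6229 and 6128 at THZ1 24 h. ITGB1 had 889.6, 962 and 833 CPM at YKL-5-124 4 h and 775, 759 and 832 at YKL-5-124 24 h. Every ITGB1 library of THZ1 4 h, THZ1 24 h and YKL-5-124 4 h lay above all 3 of DMSO, and YKL-5-124 24 h overlapped DMSO on this scale. ITGB1 stood at 132 ± 5.62 CPM per kilobase in DMSO and rose on the log2 scale by 0.82 ± 0.10 at THZ1 4 h and 2.94 ± 0.11 at THZ1 24 h. ITGB1 had uncalled log2 values of 0.18 at YKL-5-124 4 h and -0.0038 at YKL-5-124 24 h. ITGB1 had no call at THZ1 4 h with ribosomal protein mRNAs. RP11-462L8.1 overlaps ITGB1 on the opposite strand. ITGB5, which pairs with the alpha V chain to bind vitronectin, measured 79.2, 101 and 83.4 CPM in DMSO, 122, 140.3 and 137 at THZ1 4 h and 371, 402 and 417 at THZ1 24 h. ITGB5 had 86.6, 99.6 and 104 CPM at YKL-5-124 4 h and 97.2, 101 and 114 at YKL-5-124 24 h. Every ITGB5 library of THZ1 4 h and THZ1 24 h lay above all 3 of DMSO, and YKL-5-124 4 h and YKL-5-124 24 h overlapped DMSO on this scale. ITGB5 stood at 13.6 ± 1.79 CPM per kilobase in DMSO and rose on the log2 scale by 0.60 ± 0.11 at THZ1 4 h and 2.17 ± 0.12 at THZ1 24 h (below 0 against ribosomal protein mRNAs). ITGB5 had uncalled log2 values of 0.14 at YKL-5-124 4 h and 0.24 at YKL-5-124 24 h. ITGB5 had no call at THZ1 4 h with library totals or ribosomal protein mRNAs, nor at THZ1 24 h with ribosomal protein mRNAs.

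The other beta chains were scarce. ITGB3, another partner of alpha V, measured 0.799, 1.01 and 0.506 CPM in DMSO, 0.949, 0.955 and 1.82 at THZ1 4 h and 2.42, 4.29 and 5.74 at THZ1 24 h. ITGB3 had 1.32, 1.4 and 0.969 CPM at YKL-5-124 4 h and 2.06, 2.04 and 2.88 at YKL-5-124 24 h. Every ITGB3 library of THZ1 24 h and YKL-5-124 24 h lay above all 3 of DMSO, and THZ1 4 h and YKL-5-124 4 h overlapped DMSO on this scale. ITGB3 stood at 0.175 ± 0.0572 CPM per kilobase in DMSO and rose on the log2 scale by 2.42 ± 0.38 at THZ1 24 h and 1.58 ± 0.36 at YKL-5-124 24 h. ITGB3 had uncalled log2 values of 0.68 at THZ1 4 h and 0.67 at YKL-5-124 4 h. ITGB3 had no call at THZ1 24 h with ribosomal protein mRNAs. ITGB2, the beta chain of leukocyte integrins, measured 0.666, 0.813 and 0.506 CPM in DMSO, 0.427, 1.49 and 0.745 at THZ1 4 h and 3.38, 7.25 and 5.63 at THZ1 24 h. ITGB2 had 0.232, 1.44 and 1.76 CPM at YKL-5-124 4 h and 1.82, 0.750 and 0.829 at YKL-5-124 24 h. Every ITGB2 library of THZ1 24 h lay above all 3 of DMSO, and THZ1 4 h, YKL-5-124 4 h and YKL-5-124 24 h overlapped DMSO on this scale. ITGB2 stood at 0.0973 ± 0.0226 CPM per kilobase in DMSO and rose on the log2 scale by 3.03 ± 0.59 at THZ1 24 h. ITGB2 had uncalled log2 values of 0.40 at THZ1 4 h, 0.77 at YKL-5-124 4 h and 0.78 at YKL-5-124 24 h. ITGB2 had no call at THZ1 24 h with ribosomal protein mRNAs. These ITGB2 levels rest on 48 counts in DMSO and 153 at THZ1 24 h, beside 16 counts of the leukocyte marker PTPRC in all libraries. The 8 leukocyte markers summed to 0.253 to 0.311 CPM in DMSO and 0.966 to 2.96 at THZ1 24 h. At YKL-5-124 24 h, where ITGB2 had no call, they summed to 0.333 to 4.51 CPM. The only 1 of the 8 to pass the filter on low counts held 164 counts in all libraries, and CD3E and CD68 are among those at 0 in every library. ITGB4, which joins alpha 6 in the hemidesmosome, stood at 0.923 ± 0.970 CPM per kilobase in DMSO and rose on the log2 scale by 1.64 ± 0.71 at THZ1 24 h (below 0 against ribosomal protein mRNAs). ITGB4 had uncalled log2 values of 0.69 at THZ1 4 h, 0.32 at YKL-5-124 4 h and 0.012 at YKL-5-124 24 h. ITGB4 lost its THZ1 24 h call on leaving out DMSO replicate 1 or 3 or THZ1 24 h replicate 2 or 3 (edgeR adjusted p 0.116 to 0.181), and its log2 value became 2.98 without DMSO replicate 2. ITGB4 had no call at THZ1 24 h with library totals, ribosomal protein mRNAs or only the groups compared fitted. In the 3 DMSO libraries ITGB4 ranged 7.57-fold, and reads of GALK1 on the opposite strand overlap it.

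Of the alpha chains, ITGA6 and ITGA3 of laminin receptors were the most abundant, while ITGA7, another laminin receptor chain, was scarce. ITGA6, the alpha chain shared by the beta 1 and beta 4 laminin receptors, measured 575, 616 and 535 CPM in DMSO, 677, 999 and 1030.0 at THZ1 4 h and 847, 1074 and 1089 at THZ1 24 h. ITGA6 had 518, 632 and 548 CPM at YKL-5-124 4 h and 331, 355 and 425 at YKL-5-124 24 h. On the TMM scale every ITGA6 library of THZ1 4 h and THZ1 24 h lay above all 3 of DMSO, every one of YKL-5-124 24 h lay below, and YKL-5-124 4 h overlapped DMSO. ITGA6 stood at 88.1 ± 6.22 CPM per kilobase in DMSO and rose on the log2 scale by 0.65 ± 0.16 at THZ1 4 h and 0.80 ± 0.16 at THZ1 24 h (below 0 against library totals and ribosomal protein mRNAs) and fell, with a log2 fold change of -0.64 ± 0.16 at YKL-5-124 24 h. ITGA6 had uncalled log2 values of -0.023 at YKL-5-124 4 h. ITGA6 had no call at THZ1 4 h with library totals or ribosomal protein mRNAs, nor at THZ1 24 h with library totals, nor at YKL-5-124 24 h with library totals or ribosomal protein mRNAs. Against ribosomal protein mRNAs ITGA6 was called lower at THZ1 24 h (-1.39). AC093818.1 overlaps ITGA6 on the opposite strand. ITGA3, the alpha chain of a main beta 1 receptor for laminins, measured 365, 668 and 433 CPM in DMSO, 585, 979.8 and 770.0 at THZ1 4 h and 1846, 2673 and 3027 at THZ1 24 h. ITGA3 had 405, 652 and 685 CPM at YKL-5-124 4 h and 446, 492 and 606 at YKL-5-124 24 h. Every ITGA3 library of THZ1 24 h lay above all 3 of DMSO, and THZ1 4 h, YKL-5-124 4 h and YKL-5-124 24 h overlapped DMSO on this scale. ITGA3 stood at 49.9 ± 16.2 CPM per kilobase in DMSO and rose on the log2 scale by 2.36 ± 0.27 at THZ1 24 h. ITGA3 had uncalled log2 values of 0.67 at THZ1 4 h, 0.25 at YKL-5-124 4 h and 0.074 at YKL-5-124 24 h. ITGA3 had no call at THZ1 24 h with ribosomal protein mRNAs. ITGA7, a laminin receptor chain best known in muscle, measured 0.533, 0.890 and 0.548 CPM in DMSO, 1.76, 1.75 and 0.977 at THZ1 4 h and 2.9, 2.35 and 1.98 at THZ1 24 h. ITGA7 had 0.736, 0.553 and 0.660 CPM at YKL-5-124 4 h and 1.26, 0.958 and 0.868 at YKL-5-124 24 h. Every ITGA7 library of THZ1 4 h and THZ1 24 h lay above all 3 of DMSO, and YKL-5-124 4 h and YKL-5-124 24 h overlapped DMSO on this scale. ITGA7 stood at 0.103 ± 0.0317 CPM per kilobase in DMSO and rose on the log2 scale by 1.17 ± 0.32 at THZ1 4 h and 1.85 ± 0.33 at THZ1 24 h (below 0 against ribosomal protein mRNAs). ITGA7 had uncalled log2 values of -0.025 at YKL-5-124 4 h and 0.64 at YKL-5-124 24 h. ITGA7 had no call at THZ1 4 h with ribosomal protein mRNAs, nor at THZ1 24 h with library totals or ribosomal protein mRNAs. ITGA7 rests on 48 counts in DMSO, and BLOC1S1 and METTL7B overlap it on the other strand, so its reads cannot be told from theirs.

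Chains that bind collagen or the RGD motif of fibronectin and vitronectin divided. ITGAV, the RGD-binding partner of several beta chains, stood at 18.9 ± 1.21 CPM per kilobase in DMSO and rose on the log2 scale by 0.72 ± 0.12 at THZ1 4 h and 2.27 ± 0.12 at THZ1 24 h. ITGAV had uncalled log2 values of 0.13 at YKL-5-124 4 h and 0.28 at YKL-5-124 24 h. ITGAV had no call at THZ1 4 h with ribosomal protein mRNAs, nor at THZ1 24 h with ribosomal protein mRNAs. ITGA1, a collagen receptor chain, stood at 0.418 ± 0.113 CPM per kilobase in DMSO and rose on the log2 scale by 0.76 ± 0.23 at THZ1 4 h and 2.25 ± 0.24 at THZ1 24 h. ITGA1 had uncalled log2 values of 0.36 at YKL-5-124 4 h and 0.16 at YKL-5-124 24 h. ITGA1 lost its THZ1 4 h call on leaving out DMSO replicate 1 or 3 or THZ1 4 h replicate 2 or 3 (edgeR adjusted p 0.056 to 0.086). ITGA1 had no call at THZ1 4 h with library totals, ribosomal protein mRNAs or only the groups compared fitted, nor at THZ1 24 h with ribosomal protein mRNAs. PELO lies within ITGA1 on the same strand, so counts of the pair are uncertain. ITGA2, the other main collagen receptor chain, stood at 2.0 ± 0.140 CPM per kilobase in DMSO. ITGA2 had uncalled log2 values of 0.41 at THZ1 4 h, 0.22 at THZ1 24 h, -0.11 at YKL-5-124 4 h and -0.31 at YKL-5-124 24 h. Against library totals and ribosomal protein mRNAs ITGA2 was called lower after 24 h of THZ1. ITGAE, known as the partner of beta 7 in T cells that bind E-cadherin, stood at 3.29 ± 0.526 CPM per kilobase in DMSO and rose on the log2 scale by 0.56 ± 0.20 at THZ1 4 h and 2.24 ± 0.21 at THZ1 24 h. ITGAE had uncalled log2 values of 0.086 at YKL-5-124 4 h and -0.044 at YKL-5-124 24 h. ITGAE lost its THZ1 4 h call on leaving out DMSO replicate 1 or 2 or THZ1 4 h replicate 1 (edgeR adjusted p 0.0543 to 0.198), and its log2 value became 0.33 without THZ1 4 h replicate 1. ITGAE had no call at THZ1 4 h with library totals, ribosomal protein mRNAs or only the groups compared fitted, nor at THZ1 24 h with ribosomal protein mRNAs. GSG2 lies on the opposite strand within it.

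ITGA5, the alpha chain of the fibronectin receptor, was the only integrin chain called lower after 24 h of THZ1 on the TMM scale. Other scalings called ITGA2 (library totals and ribosomal protein mRNAs) and ITGA6 (ribosomal protein mRNAs) lower there too. After 24 h of YKL-5-124 ITGA5 was called in the other direction. ITGA5 measured 29, 28.7 and 27.6 CPM in DMSO, 23.4, 30.4 and 21.7 at THZ1 4 h and 21.1, 12.5 and 11.8 at THZ1 24 h. ITGA5 had 24.4, 27 and 27.6 CPM at YKL-5-124 4 h and 43.4, 49.4 and 39.7 at YKL-5-124 24 h. On the TMM scale every ITGA5 library of YKL-5-124 24 h lay above all 3 of DMSO, every one of THZ1 24 h lay below, and THZ1 4 h and YKL-5-124 4 h overlapped DMSO. At 24 h ITGA5 had a log2 fold change of -0.92 ± 0.19 (SE, edgeR adjusted p = 0.000468) with THZ1 and a log2 fold change of 0.63 ± 0.18 (SE, edgeR adjusted p = 0.0223) with YKL-5-124, at a DMSO level of 3.75 ± 0.0961 CPM per kilobase. Both directions held under all 5 scalings. ITGA5 lost its YKL-5-124 24 h call on leaving out DMSO replicate 1 or 3 or YKL-5-124 24 h replicate 1 or 2 (edgeR adjusted p 0.0526 to 0.0921). At 4 h the values were -0.18 and -0.11, neither called. The window from 250 bases before to 50 after the RefSeq start of ITGA5 is shown because this gene alone among the 44 went opposite ways with calls under every scaling (GRCh38.p14, chr12:54419217-54419516, minus strand, written 5′ to 3′, with matches to the motifs listed further on in capitals).
ITGA5: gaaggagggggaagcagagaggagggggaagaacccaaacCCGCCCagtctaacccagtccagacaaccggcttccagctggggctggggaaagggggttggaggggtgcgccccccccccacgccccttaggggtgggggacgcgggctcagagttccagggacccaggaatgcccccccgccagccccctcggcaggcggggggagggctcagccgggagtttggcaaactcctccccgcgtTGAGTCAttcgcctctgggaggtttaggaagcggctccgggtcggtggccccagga
It holds 1 match to the GC box and 1 to the AP-1 motif.

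**Figure D4:**
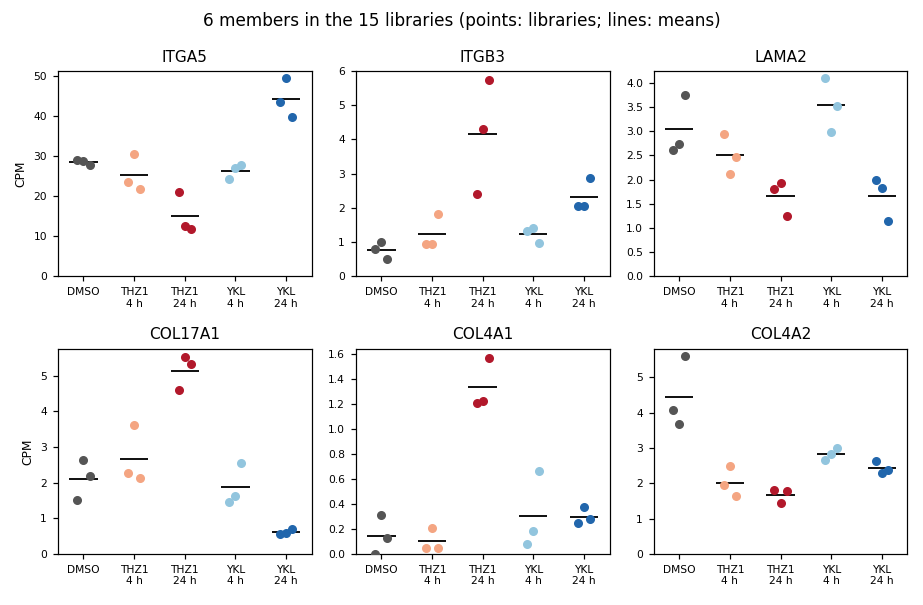
TMM-scaled CPM (y axis, from 0) of ITGA5, ITGB3, LAMA2, COL17A1, COL4A1 and COL4A2 in the 15 libraries (points; lines are group means, n = 3). ITGA5 lies below DMSO after 24 h of THZ1 and above it after 24 h of YKL-5-124 under every scaling; LAMA2 lies below DMSO in both groups; COL17A1 lies above and below DMSO in them, and falls below DMSO with THZ1 as well against ribosomal protein mRNAs; COL4A1 and COL4A2 lie on opposite sides of DMSO after 24 h of THZ1.

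LAMB3 and LAMA3 are chains of the laminin that anchors epithelia to the basement membrane. LAMB3, its beta chain, measured 94.4, 91.5 and 88.4 CPM in DMSO, 106, 142 and 114 at THZ1 4 h and 488, 459 and 504 at THZ1 24 h. LAMB3 had 78.6, 85.5 and 93.9 CPM at YKL-5-124 4 h and 58, 65 and 63.9 at YKL-5-124 24 h. On the TMM scale every LAMB3 library of THZ1 4 h and THZ1 24 h lay above all 3 of DMSO, every one of YKL-5-124 24 h lay below, and YKL-5-124 4 h overlapped DMSO. LAMB3 stood at 19.5 ± 0.633 CPM per kilobase in DMSO and rose on the log2 scale by 0.40 ± 0.11 at THZ1 4 h (below 0 against ribosomal protein mRNAs) and 2.40 ± 0.12 at THZ1 24 h and fell, with a log2 fold change of -0.55 ± 0.11 at YKL-5-124 24 h (above 0 against ribosomal protein mRNAs). LAMB3 had uncalled log2 values of -0.088 at YKL-5-124 4 h. LAMB3 lost its THZ1 4 h call on leaving out THZ1 4 h replicate 2 (edgeR adjusted p 0.0532). LAMB3 had no call at THZ1 4 h with library totals or ribosomal protein mRNAs, nor at THZ1 24 h with ribosomal protein mRNAs, nor at YKL-5-124 24 h with ribosomal protein mRNAs. LAMA3, its alpha chain, stood at 1.5 ± 0.657 CPM per kilobase in DMSO and rose on the log2 scale by 2.01 ± 0.36 at THZ1 24 h (below 0 against ribosomal protein mRNAs). LAMA3 had uncalled log2 values of 0.59 at THZ1 4 h, 0.27 at YKL-5-124 4 h and 0.25 at YKL-5-124 24 h. LAMA3 had no call at THZ1 24 h with library totals or ribosomal protein mRNAs. Both chains were thus called higher at THZ1 24 h on the TMM scale, where LAMA3 turns below 0 against ribosomal protein mRNAs. At YKL-5-124 24 h LAMB3 was called lower on that scale (above 0 against ribosomal protein mRNAs) and LAMA3 was not called.

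The remaining laminin chains belong mainly to the laminins of other basement membranes. LAMC1, the gamma chain of most laminins, measured 167, 221 and 155 CPM in DMSO, 199, 356 and 302 at THZ1 4 h and 760.0, 851 and 884 at THZ1 24 h. LAMC1 had 165, 232 and 192 CPM at YKL-5-124 4 h and 179, 193 and 244 at YKL-5-124 24 h. Every LAMC1 library of THZ1 24 h lay above all 3 of DMSO, and THZ1 4 h, YKL-5-124 4 h and YKL-5-124 24 h overlapped DMSO on this scale. LAMC1 stood at 21.5 ± 4.17 CPM per kilobase in DMSO and rose on the log2 scale by 0.66 ± 0.20 at THZ1 4 h and 2.20 ± 0.21 at THZ1 24 h (below 0 against ribosomal protein mRNAs). LAMC1 had uncalled log2 values of 0.12 at YKL-5-124 4 h and 0.18 at YKL-5-124 24 h. LAMC1 lost its THZ1 4 h call on leaving out DMSO replicate 1 or 3 or THZ1 4 h replicate 2 or 3 (edgeR adjusted p 0.0524 to 0.0807). LAMC1 had no call at THZ1 4 h with library totals, ribosomal protein mRNAs or only the groups compared fitted, nor at THZ1 24 h with ribosomal protein mRNAs. LAMB2, a beta chain found in synaptic, kidney and other basement membranes, stood at 10.7 ± 3.0 CPM per kilobase in DMSO and rose on the log2 scale by 0.66 ± 0.25 at THZ1 4 h and 2.70 ± 0.27 at THZ1 24 h. LAMB2 had uncalled log2 values of 0.28 at YKL-5-124 4 h and 0.33 at YKL-5-124 24 h. LAMB2 lost its THZ1 4 h call on leaving out DMSO replicate 1 or 3 or THZ1 4 h replicate 2 or 3 (edgeR adjusted p 0.109 to 0.237), and its log2 value became 0.40 without THZ1 4 h replicate 2. LAMB2 had no call at THZ1 4 h with upper-quartile factors, library totals, ribosomal protein mRNAs or only the groups compared fitted, nor at THZ1 24 h with ribosomal protein mRNAs. LAMB1, the most widespread beta chain, measured 5.37, 7.66 and 5.9 CPM in DMSO, 7.83, 14.2 and 11.6 at THZ1 4 h and 35.4, 40.8 and 44 at THZ1 24 h. LAMB1 had 5.58, 8.15 and 8.1 CPM at YKL-5-124 4 h and 3.18, 4.54 and 5.25 at YKL-5-124 24 h. On the TMM scale every LAMB1 library of THZ1 4 h and THZ1 24 h lay above all 3 of DMSO, every one of YKL-5-124 24 h lay below, and YKL-5-124 4 h overlapped DMSO. LAMB1 stood at 0.775 ± 0.147 CPM per kilobase in DMSO and rose on the log2 scale by 0.82 ± 0.24 at THZ1 4 h and 2.66 ± 0.25 at THZ1 24 h. LAMB1 had uncalled log2 values of 0.20 at YKL-5-124 4 h and -0.55 at YKL-5-124 24 h. LAMB1 lost its THZ1 4 h call on leaving out THZ1 4 h replicate 2 (edgeR adjusted p 0.0605). LAMB1 had no call at THZ1 4 h with library totals or ribosomal protein mRNAs, nor at THZ1 24 h with ribosomal protein mRNAs. DLD overlaps LAMB1 on the opposite strand. LAMA5, the main alpha chain of mature epithelial basement membranes, stood at 2.12 ± 1.83 CPM per kilobase in DMSO and rose on the log2 scale by 1.67 ± 0.63 at THZ1 24 h (below 0 against ribosomal protein mRNAs). LAMA5 had uncalled log2 values of 0.084 at THZ1 4 h, -0.13 at YKL-5-124 4 h and 1.05 at YKL-5-124 24 h. LAMA5 lost its THZ1 24 h call on leaving out DMSO replicate 1 or 3 or THZ1 24 h replicate 2 or 3 (edgeR adjusted p 0.0693 to 0.103), and its log2 value became 2.65 without DMSO replicate 2. LAMA5 had no call at THZ1 24 h with library totals or ribosomal protein mRNAs. LAMA5 ranged 4.74-fold among the 3 DMSO libraries, and ADRM1 overlaps it on the opposite strand. LAMC3, a rarer gamma chain, stood at 0.270 ± 0.0794 CPM per kilobase in DMSO and rose on the log2 scale by 2.82 ± 0.40 at THZ1 24 h. LAMC3 had uncalled log2 values of 0.91 at THZ1 4 h, 0.28 at YKL-5-124 4 h and -0.21 at YKL-5-124 24 h. LAMC3 had no call at THZ1 24 h with ribosomal protein mRNAs. LAMA2, the alpha chain of muscle laminin, measured 2.62, 2.75 and 3.75 CPM in DMSO, 2.94, 2.12 and 2.47 at THZ1 4 h and 1.81, 1.94 and 1.25 at THZ1 24 h. LAMA2 had 4.1, 2.99 and 3.52 CPM at YKL-5-124 4 h and 1.99, 1.83 and 1.14 at YKL-5-124 24 h. Every LAMA2 library of THZ1 24 h and YKL-5-124 24 h lay below all 3 of DMSO, and THZ1 4 h and YKL-5-124 4 h overlapped DMSO on this scale. LAMA2 stood at 0.301 ± 0.0613 CPM per kilobase in DMSO and fell, with a log2 fold change of -0.87 ± 0.29 at THZ1 24 h and -0.87 ± 0.26 at YKL-5-124 24 h. LAMA2 had uncalled log2 values of -0.27 at THZ1 4 h and 0.22 at YKL-5-124 4 h. LAMA2 lost its THZ1 24 h call on leaving out DMSO replicate 3 or THZ1 24 h replicate 3 (edgeR adjusted p 0.0569 to 0.0679). LAMA2 lost its YKL-5-124 24 h call on leaving out DMSO replicate 3 or YKL-5-124 24 h replicate 2 or 3 (edgeR adjusted p 0.0505 to 0.123). LAMA2 had no call at THZ1 24 h with RLE, upper-quartile factors or DESeq2, nor at YKL-5-124 24 h with ribosomal protein mRNAs or only the groups compared fitted.

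Among collagens, the most abundant were not fibril formers. COL12A1, a fibril-associated collagen, measured 121, 230.0 and 101 CPM in DMSO, 122, 419.8 and 343 at THZ1 4 h and 554, 980.1 and 1054 at THZ1 24 h. COL12A1 had 109.8, 256 and 195 CPM at YKL-5-124 4 h and 81.3, 97.2 and 214 at YKL-5-124 24 h. Every COL12A1 library of THZ1 24 h lay above all 3 of DMSO, and THZ1 4 h, YKL-5-124 4 h and YKL-5-124 24 h overlapped DMSO on this scale. COL12A1 stood at 12.1 ± 5.55 CPM per kilobase in DMSO and rose on the log2 scale by 2.52 ± 0.49 at THZ1 24 h. COL12A1 had uncalled log2 values of 0.97 at THZ1 4 h, 0.31 at YKL-5-124 4 h and -0.21 at YKL-5-124 24 h. COL12A1 had no call at THZ1 24 h with ribosomal protein mRNAs. COL6A1, the alpha 1 chain of beaded-filament collagen VI, measured 5.68, 12.7 and 6.57 CPM in DMSO, 8.26, 20.4 and 14.8 at THZ1 4 h and 39.9, 64.5 and 78.9 at THZ1 24 h. COL6A1 had 6.58, 12 and 12.6 CPM at YKL-5-124 4 h and 7.38, 8.0 and 12.5 at YKL-5-124 24 h. Every COL6A1 library of THZ1 24 h lay above all 3 of DMSO, and THZ1 4 h, YKL-5-124 4 h and YKL-5-124 24 h overlapped DMSO on this scale. COL6A1 stood at 1.55 ± 0.710 CPM per kilobase in DMSO and rose on the log2 scale by 2.88 ± 0.39 at THZ1 24 h. COL6A1 had uncalled log2 values of 0.80 at THZ1 4 h, 0.32 at YKL-5-124 4 h and 0.16 at YKL-5-124 24 h. COL6A1 had no call at THZ1 24 h with ribosomal protein mRNAs. Its partner chains COL6A2 and COL6A3 had 49 and 44 counts in all libraries and were not tested. COL18A1, a basement membrane collagen that yields endostatin, measured 2.35, 9.48 and 2.53 CPM in DMSO, 4.08, 14.6 and 9.73 at THZ1 4 h and 18.6, 47.6 and 72.1 at THZ1 24 h. COL18A1 had 2.13, 8.15 and 9.82 CPM at YKL-5-124 4 h and 3.92, 3.54 and 10.3 at YKL-5-124 24 h. Every COL18A1 library of THZ1 24 h lay above all 3 of DMSO, and THZ1 4 h, YKL-5-124 4 h and YKL-5-124 24 h overlapped DMSO on this scale. COL18A1 stood at 0.561 ± 0.477 CPM per kilobase in DMSO and rose on the log2 scale by 3.26 ± 0.71 at THZ1 24 h. COL18A1 had uncalled log2 values of 0.97 at THZ1 4 h, 0.47 at YKL-5-124 4 h and 0.30 at YKL-5-124 24 h. COL18A1 had no call at THZ1 24 h with ribosomal protein mRNAs. COL18A1 is overlapped by SLC19A1 on the opposite strand, and its DMSO libraries ranged 4.03-fold.

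The membrane-spanning and anchoring collagens of epithelia changed in different ways. COL17A1, the hemidesmosomal collagen, measured 1.51, 2.63 and 2.19 CPM in DMSO, 2.28, 3.61 and 2.14 at THZ1 4 h and 4.59, 5.51 and 5.32 at THZ1 24 h. COL17A1 had 1.47, 1.62 and 2.55 CPM at YKL-5-124 4 h and 0.560, 0.583 and 0.710 at YKL-5-124 24 h. On the TMM scale every COL17A1 library of THZ1 24 h lay above all 3 of DMSO, every one of YKL-5-124 24 h lay below, and THZ1 4 h and YKL-5-124 4 h overlapped DMSO. COL17A1 stood at 0.328 ± 0.0879 CPM per kilobase in DMSO and rose on the log2 scale by 1.28 ± 0.28 at THZ1 24 h (below 0 against ribosomal protein mRNAs) and fell, with a log2 fold change of -1.77 ± 0.31 at YKL-5-124 24 h. COL17A1 had uncalled log2 values of 0.33 at THZ1 4 h and -0.17 at YKL-5-124 4 h. COL17A1 had no call at THZ1 24 h with library totals and was called lower there against ribosomal protein mRNAs (-0.93). The COL17A1 fall at YKL-5-124 24 h was called under all 5 scalings. COL13A1, another membrane-spanning collagen, stood at 0.479 ± 0.0542 CPM per kilobase in DMSO and rose on the log2 scale by 1.83 ± 0.29 at THZ1 24 h (below 0 against ribosomal protein mRNAs). COL13A1 had uncalled log2 values of 0.44 at THZ1 4 h, 0.42 at YKL-5-124 4 h and 0.35 at YKL-5-124 24 h. COL13A1 had no call at THZ1 24 h with ribosomal protein mRNAs. COL7A1, the collagen of anchoring fibrils, stood at 0.0744 ± 0.0224 CPM per kilobase in DMSO and rose on the log2 scale by 1.78 ± 0.54 at THZ1 24 h (below 0 against ribosomal protein mRNAs). COL7A1 had uncalled log2 values of 0.97 at THZ1 4 h, 0.18 at YKL-5-124 4 h and 1.11 at YKL-5-124 24 h. COL7A1 had no call at THZ1 24 h with library totals or ribosomal protein mRNAs. COL27A1, a fibrillar collagen of cartilage, measured 3.2, 10.6 and 2.27 CPM in DMSO, 1.85, 6.74 and 2.0 at THZ1 4 h and 1.45, 1.12 and 1.67 at THZ1 24 h. COL27A1 had 2.56, 5.02 and 5.55 CPM at YKL-5-124 4 h and 1.71, 2.42 and 2.92 at YKL-5-124 24 h. Every COL27A1 library of THZ1 24 h lay below all 3 of DMSO, and THZ1 4 h, YKL-5-124 4 h and YKL-5-124 24 h overlapped DMSO on this scale. COL27A1 stood at 0.382 ± 0.325 CPM per kilobase in DMSO and fell, with a log2 fold change of -1.92 ± 0.65 at THZ1 24 h. COL27A1 had uncalled log2 values of -0.61 at THZ1 4 h, -0.30 at YKL-5-124 4 h and -1.19 at YKL-5-124 24 h. COL27A1 lost its THZ1 24 h call on leaving out DMSO replicate 2 or THZ1 24 h replicate 2 (edgeR adjusted p 0.0633 to 0.143), and its log2 value became -0.95 without DMSO replicate 2. COL27A1 was highest in DMSO replicate 2.

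Fibrillar collagens of stroma were near the lower limit. COL1A1, the main chain of type I collagen, measured 0.133, 0.348 and 0.548 CPM in DMSO, 0.475, 0.318 and 0.652 at THZ1 4 h and 1.21, 7.25 and 3.44 at THZ1 24 h. COL1A1 had 0.503, 0.959 and 1.76 CPM at YKL-5-124 4 h and 2.31, 0.375 and 0.671 at YKL-5-124 24 h. Every COL1A1 library of THZ1 24 h lay above all 3 of DMSO, and THZ1 4 h, YKL-5-124 4 h and YKL-5-124 24 h overlapped DMSO on this scale. COL1A1 stood at 0.0349 ± 0.0211 CPM per kilobase in DMSO and rose on the log2 scale by 3.51 ± 0.76 at THZ1 24 h. COL1A1 had uncalled log2 values of 0.48 at THZ1 4 h, 1.61 at YKL-5-124 4 h and 1.70 at YKL-5-124 24 h. COL1A1 had no call at THZ1 24 h with ribosomal protein mRNAs. These are 3, 9 and 13 counts in DMSO and 10, 71 and 33 at THZ1 24 h, and the 3 libraries of THZ1 24 h differed widely. COL1A2, its partner chain, had no count in DMSO. It had 1, 4 and 4 counts at THZ1 24 h and 37, 1 and 4 at YKL-5-124 24 h. On the TMM scale edgeR with group alone called it in no comparison with DMSO. DESeq2 called COL1A2 higher at YKL-5-124 24 h (DESeq2 adjusted p = 0.0117), as did edgeR against ribosomal protein mRNAs (edgeR adjusted p = 0.0433). The 8 fibroblast and stellate markers summed to 1.78 to 2.48 CPM in DMSO and 3.26 to 9.9 at THZ1 24 h, a sum that includes COL1A1 itself, with LUM at 0 in DMSO. COL5A1, a fibril-nucleating chain of type V collagen, stood at 0.116 ± 0.119 CPM per kilobase in DMSO and rose on the log2 scale by 1.95 ± 0.78 at THZ1 24 h (below 0 against ribosomal protein mRNAs). COL5A1 had uncalled log2 values of 0.71 at THZ1 4 h, 0.48 at YKL-5-124 4 h and 0.64 at YKL-5-124 24 h. COL5A1 lost its THZ1 24 h call on leaving out DMSO replicate 1 or 3 or THZ1 24 h replicate 2 or 3 (edgeR adjusted p 0.0716 to 0.141), and its log2 value became 3.23 without DMSO replicate 2. COL5A1 had no call at THZ1 24 h with library totals or ribosomal protein mRNAs. COL5A2, its partner chain, stood at 0.197 ± 0.0531 CPM per kilobase in DMSO. COL5A2 had uncalled log2 values of 0.24 at THZ1 4 h, 0.064 at THZ1 24 h, 0.15 at YKL-5-124 4 h and 0.61 at YKL-5-124 24 h. Against library totals and ribosomal protein mRNAs COL5A2 was called lower after 24 h of THZ1 (-1.07 and -2.15). COL3A1, the chain of type III collagen, stood at 0.238 ± 0.0321 CPM per kilobase in DMSO. COL3A1 had uncalled log2 values of -0.37 at THZ1 4 h, -0.73 at THZ1 24 h, -0.30 at YKL-5-124 4 h and -0.055 at YKL-5-124 24 h. COL16A1, a fibril-associated collagen, stood at 0.102 ± 0.0634 CPM per kilobase in DMSO. COL16A1 had uncalled log2 values of 0.34 at THZ1 4 h, 0.96 at THZ1 24 h, -0.36 at YKL-5-124 4 h and -1.03 at YKL-5-124 24 h. COL5A1 ranged 7.95-fold and COL16A1 4.73-fold among the DMSO libraries.

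COL4A1 and COL4A2, whose products assemble into the type IV collagen of all basement membranes, lie head to head on chromosome 13. In the files COL4A1 spans chr13:110148963-110307149 on the minus strand and COL4A2 chr13:110305812-110513027 on the plus strand (GRCh38), so their first bases overlap and reads there cannot be told apart. Their RefSeq starts lie 127 bases apart, and the windows from 250 bases before to 50 after each start (GRCh38.p14) share 226 bases. Both are shown, 5′ to 3′ on the gene's own strand, because the 2 genes share this stretch and stood on opposite sides of DMSO at THZ1 24 h, with motif matches in capitals; the windows are chr13:110307108-110307407 and chr13:110307034-110307333.
COL4A1: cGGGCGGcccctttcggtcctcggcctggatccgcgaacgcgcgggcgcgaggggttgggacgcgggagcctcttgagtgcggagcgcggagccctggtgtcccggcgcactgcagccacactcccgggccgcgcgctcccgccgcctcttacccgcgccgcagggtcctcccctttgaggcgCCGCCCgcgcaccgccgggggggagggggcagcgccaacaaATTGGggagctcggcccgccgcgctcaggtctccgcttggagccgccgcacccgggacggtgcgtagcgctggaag
COL4A2: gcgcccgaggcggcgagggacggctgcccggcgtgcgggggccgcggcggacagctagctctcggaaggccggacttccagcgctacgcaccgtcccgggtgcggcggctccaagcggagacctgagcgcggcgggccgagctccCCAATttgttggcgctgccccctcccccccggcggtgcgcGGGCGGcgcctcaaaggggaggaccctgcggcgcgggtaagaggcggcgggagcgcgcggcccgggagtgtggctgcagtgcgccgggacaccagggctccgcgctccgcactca
Each holds a CCAAT box, and the GC boxes number 2 and 1.

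COL4A2 measured 4.09, 3.68 and 5.6 CPM in DMSO, 1.95, 2.49 and 1.63 at THZ1 4 h and 1.81, 1.43 and 1.77 at THZ1 24 h. COL4A2 had 2.67, 2.84 and 2.99 CPM at YKL-5-124 4 h and 2.62, 2.29 and 2.37 at YKL-5-124 24 h. Every COL4A2 library of THZ1 4 h, THZ1 24 h, YKL-5-124 4 h and YKL-5-124 24 h lay below all 3 of DMSO on this scale. COL4A2, the alpha 2 chain, stood at 0.512 ± 0.117 CPM per kilobase in DMSO and fell, with a log2 fold change of -1.14 ± 0.22 at THZ1 4 h, -1.41 ± 0.24 at THZ1 24 h and -0.87 ± 0.21 at YKL-5-124 24 h. COL4A2 had uncalled log2 values of -0.65 at YKL-5-124 4 h. COL4A2 lost its YKL-5-124 24 h call on leaving out DMSO replicate 3 (edgeR adjusted p 0.0634). COL4A2 had no call at YKL-5-124 24 h with ribosomal protein mRNAs. Both THZ1 falls were called under all 5 scalings, and the 4 h YKL-5-124 value had no call. COL4A1 had few counts: 0, 8 and 3 in DMSO, 1, 4 and 1 and 10, 12 and 15 after 4 h and 24 h of THZ1, and 2, 5 and 15 and 7, 9 and 7 after YKL-5-124. On the CPM scale that was 0, 0.310 and 0.126 in DMSO and 1.21, 1.23 and 1.57 at THZ1 24 h, which did not overlap. It passed the filter on low counts only through the THZ1 24 h libraries, where it was high, so its levels are a description and no test is given. The ratio of its summed scaled counts at THZ1 24 h to those in DMSO was 8.77, on 37 and 11 counts, and no interval is given for it. For COL4A2 that ratio was 0.375, with an exact binomial 95% interval of 0.269 to 0.512. That interval covers counting error only, not the spread between libraries. The difference between the 2 genes was not tested as such.

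Of the 44 genes tested, 31 matched a RefSeq promoter window of 300 bases, and each was searched on both strands for 5 motifs. The GC box GGGCGG was found in 21 of them, against 45.0% of all 35116 windows of that length. CCAAT was found in 7 (all windows 34.6%), TATAAA in 5 (11.5%), the AP-1 motif TGANTCA in 3 (7.71%) and the E-box CACGTG in 1 (7.26%). None of these motifs contains another. Matches describe the letters only.

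After 4 h of THZ1, 12 of 44 genes rose and 1 fell on the TMM scale, where 16.9% of all genes were called higher and 25.1% lower. The median log2 fold change was 0.60, beside 0 for all genes. The risers were 5 integrin alpha genes (ITGA7, ITGA1, ITGAV, ITGA6 and ITGAE), 2 beta genes (ITGB1 and ITGB5) and 5 laminins (LAMB1, LAMB2, LAMC1 and LAMB3 among them, LAMB3 below 0 against ribosomal protein mRNAs), with log2 fold changes from 0.40 for LAMB3 to 1.17 for ITGA7. No collagen was called higher by edgeR (1 of 19 at an unadjusted p under 0.05, and 2 called by DESeq2), and COL4A2 was the single fall. Scaled by library totals, 3 were higher (ITGA7, ITGAV and ITGB1) and 2 lower (COL4A2 and ITGA10), with 4.03% and 32.0% of all genes. Against ribosomal protein mRNAs none was higher (edgeR, 4 lower), with 0.201% and 38.1% of all genes. Leaving out 1 library gave between 7 (without THZ1 4 h replicate 2) and 17 genes called higher (without DMSO replicate 2, or without THZ1 4 h replicate 1). The share of all genes is not given for these fits, so the range describes the setting only.

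After 4 h of YKL-5-124 edgeR called 0 of 44 genes in either direction, where 0.0553% of all genes were called higher and 0.463% lower. At an unadjusted p under 0.05 there were 1 higher and 2 lower, and DESeq2 called 0. The median log2 fold change was 0.16, and among the 35 genes whose mean reached 1 CPM the values ran from -0.65 for COL4A2 to 1.61 for COL1A1.

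After 24 h of YKL-5-124, 4 of 44 rose and 7 fell, where 8.92% of all genes were called higher and 12.7% lower. Those that fell included COL17A1, ITGA10, LAMA2, COL4A2, ITGA6 and LAMB3 (LAMB3 above 0 against ribosomal protein mRNAs), with the hemidesmosomal collagen and the alpha 6 chain among them. Those that rose were ITGA5, ITGB3, COL11A2 and ITGAL. The median log2 fold change was 0.17, against -0.036 over all genes. Scaled by library totals there were 5 higher and 6 lower (all genes 14.5% and 8.2%), and against ribosomal protein mRNAs 11 higher and 2 lower (all genes 35.3% and 1.39%), where those scalings moved the median of all genes by 0.14 and 0.58. COL11A2 and ITGAL passed the filter only through groups in which they were called higher, so their calls carry no weight. COL17A1 and ITGA10 were called lower, and ITGA5 and ITGB3 higher, under all 5 scalings. Without DMSO replicate 1, DMSO replicate 3 or YKL-5-124 24 h replicate 1 the number called higher was 2, given without the share of all genes as a description of the setting.

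**Figure D5:**
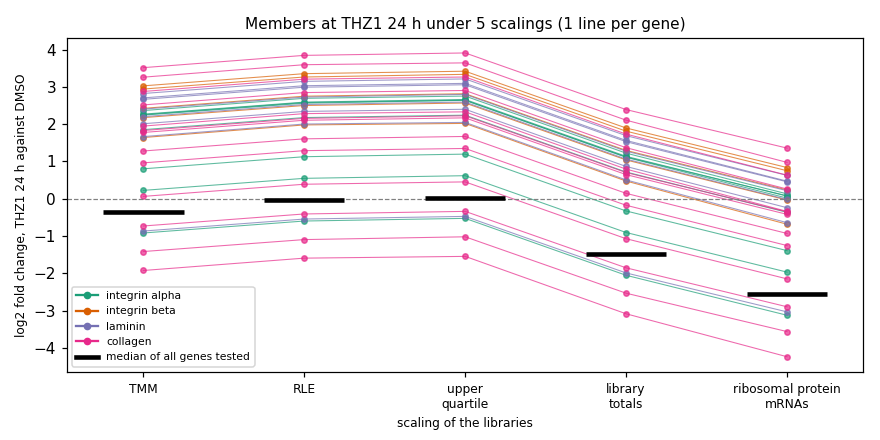
Log2 fold change of 34 genes whose mean reached 1 CPM (y axis) at THZ1 24 h against DMSO under 5 scalings of the libraries (x axis), 1 line per gene coloured by class; the thick bars are the median of all genes tested. Each scaling moves all lines together: most genes lie above 0 under TMM, RLE and upper-quartile factors, most still lie above 0 under library totals, and they spread around 0 against ribosomal protein mRNAs, while the bar for all genes lies below most of the lines throughout.

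Compared directly, 1 pair of compounds was tested at 2 times, at the same dose. At 4 h, 10 genes were higher with THZ1 than with YKL-5-124 and 0 lower by edgeR (1 lower at an unadjusted p under 0.05, and 0 by DESeq2), where 11.4% of all genes were higher and 21.9% lower. The 10 included ITGA2, ITGA6, ITGA7, ITGAV, ITGB1, ITGB5, LAMB3, LAMC1 and COL10A1, with median 0.41 over the 44. COL10A1, which NT5DC1 overlaps on the opposite strand, had 14, 18 and 6 counts with THZ1 and 0, 0 and 1 with YKL-5-124 at 4 h, and 4, 16 and 3 in DMSO. It reached the minimum of the filter in 2 libraries of THZ1 4 h and 1 of DMSO only, so its calls against THZ1 4 h carry no weight. ITGA2 lost its 4 h between-compound call on leaving out THZ1 4 h replicate 2 or 3 or YKL-5-124 4 h replicate 3 (edgeR adjusted p 0.0642 to 0.107). LAMC1 lost its 4 h between-compound call on leaving out THZ1 4 h replicate 2 or 3 or YKL-5-124 4 h replicate 1 or 3 (edgeR adjusted p 0.116 to 0.202), and its log2 value became 0.35 without THZ1 4 h replicate 2. ITGA2 had no call in the 4 h comparison of compounds with library totals, ribosomal protein mRNAs or only the groups compared fitted, nor had ITGA6, ITGB5 and LAMB3 with library totals or ribosomal protein mRNAs, nor had ITGA7, ITGAV and ITGB1 with ribosomal protein mRNAs, nor had LAMC1 with upper-quartile factors, library totals, ribosomal protein mRNAs or only the groups compared fitted. Scaled by library totals there were 4 higher and 2 lower (all genes 1.38% and 28.8%), and against ribosomal protein mRNAs 1 higher and 2 lower (all genes 0.180% and 30.8%).

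At 24 h, 28 genes were higher with THZ1 and 1 was lower on the TMM scale, where 31.8% of all genes were higher and 44.1% lower. COL4A1 was among the 28, and since it passed the filter only through THZ1 24 h its call carries no weight. Large differences among genes averaging 1 CPM or more were those of LAMB1 (3.21 ± 0.25, SE), COL17A1 (3.05 ± 0.32), LAMC3 (3.03 ± 0.40), COL18A1 (2.96 ± 0.70) and LAMB3 (2.96 ± 0.12). ITGA5 was the gene called lower, with a log2 fold change of -1.55 ± 0.19 (SE, edgeR adjusted p = 2.61e-06). ITGA5 was called lower under all 5 scalings. Against ribosomal protein mRNAs COL1A1, ITGB3 and ITGB4 had log2 differences below 0 (ITGB3 called lower, -1.94), and ITGB3 with library totals too. COL1A1 lost its 24 h between-compound call on leaving out THZ1 24 h replicate 2 or YKL-5-124 24 h replicate 2 or 3 (edgeR adjusted p 0.0723 to 0.196), and its log2 value became 1.09 without THZ1 24 h replicate 2 and 2.92 without YKL-5-124 24 h replicate 1. ITGB3 lost its 24 h between-compound call on leaving out THZ1 24 h replicate 2 or 3 or YKL-5-124 24 h replicate 1 or 2 (edgeR adjusted p 0.0733 to 0.194). ITGB4 lost its 24 h between-compound call on leaving out THZ1 24 h replicate 2 or 3 or YKL-5-124 24 h replicate 1 or 2 (edgeR adjusted p 0.117 to 0.182). LAMB1, COL17A1, LAMC3, COL18A1 and LAMB3 had no call in the 24 h comparison of compounds with ribosomal protein mRNAs, nor had COL1A1 and ITGB4 with library totals or ribosomal protein mRNAs, nor had ITGB3 with library totals or no filter. With library totals there were 17 higher and 8 lower (all genes 13.8% and 68.6%), and against ribosomal protein mRNAs 1 higher and 19 lower (all genes 1.92% and 89.5%).

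For 15 of the 44 genes the 24 h difference between compounds had no call on the TMM scale. For LAMA2, which fell with both, it was 0.0046 with a 95% interval of -0.62 to 0.63, and for COL4A2, which also fell with both, -0.54 (-1.07 to -0.015). With library totals and ribosomal protein mRNAs LAMA2 was called lower with THZ1 than with YKL-5-124 (-1.26 and -2.71). Wider intervals held for LAMA5 (-0.69 to 1.92), COL7A1 (-0.42 to 1.75) and COL5A1 (-0.29 to 2.91). All 3 intervals span 0 on the TMM scale. Against ribosomal protein mRNAs LAMA5 (-2.22) and COL7A1 (-2.14) were called lower with THZ1.

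Between times, 25 genes were higher and 2 lower at 24 h than at 4 h of THZ1 on the TMM scale, where 31.4% and 35.7% of all genes were called. COL11A2 was among the 25. Calls of COL11A2, COL4A1 or ITGAL in this comparison carry no weight, since they passed the filter only through groups in which they were called higher. The 2 lower genes were ITGA5 and COL10A1. COL10A1 reached the filter's minimum only in 2 libraries of THZ1 4 h and 1 of DMSO, so its call carries no weight. COL10A1 lost its THZ1 24 h against 4 h call on leaving out THZ1 4 h replicate 1 or 2 or THZ1 24 h replicate 1 or 2 (edgeR adjusted p 0.077 to 0.176), and its log2 value became -6.78 without THZ1 24 h replicate 3. ITGA5 had no call between the THZ1 times with upper-quartile factors, nor had COL10A1 with RLE, upper-quartile factors, DESeq2 or only the groups compared fitted. With library totals there were 18 higher and 9 lower (all genes 15.8% and 56.5%), and against ribosomal protein mRNAs 0 higher and 10 lower (all genes 5.23% and 71.7%). With YKL-5-124, 2 genes were higher at 24 h (ITGA5 and COL11A2) and 6 lower (COL17A1, ITGA6, LAMA2, LAMB1 and LAMB3 among them), where 9.22% and 11.9% of all genes were called. COL11A2 passed the filter only through groups in which it was called higher, so its call carries no weight. ITGA6 lost its YKL-5-124 24 h against 4 h call on leaving out YKL-5-124 4 h replicate 2 or YKL-5-124 24 h replicate 1 (edgeR adjusted p 0.0579). LAMB1 lost its YKL-5-124 24 h against 4 h call on leaving out YKL-5-124 4 h replicate 2 or 3 or YKL-5-124 24 h replicate 1 or 2 (edgeR adjusted p 0.082 to 0.158). COL17A1 and LAMA2 had no call between the YKL-5-124 times with ribosomal protein mRNAs, nor had ITGA6 and LAMB3 with library totals or ribosomal protein mRNAs, nor had LAMB1 with upper-quartile factors, library totals, ribosomal protein mRNAs or only the groups compared fitted. With library totals there were 3 higher and 3 lower (all genes 15.8% and 7.22%). Against ribosomal protein mRNAs there were 9 higher and 0 lower (all genes 46.8% and 0.906%). The interaction of compound and time, the difference between THZ1 and YKL-5-124 at 24 h less that at 4 h, was called above 0 for 23 genes and below 0 for 2 (ITGA5 and COL10A1), where 26.6% and 31.0% of all genes were called. The COL10A1 interaction includes THZ1 4 h, so that call carries no weight either. Nor does that of COL4A1, 1 of the 23, which passed the filter only through THZ1 24 h. COL10A1 lost its interaction call on leaving out THZ1 24 h replicate 1 or 2, YKL-5-124 4 h replicate 1 or 2, YKL-5-124 24 h replicate 2 (edgeR adjusted p 0.0548 to 0.109), and its log2 value became -9.31 without THZ1 24 h replicate 3. With library totals the interaction was called above 0 for 7 and below 0 for 7 (all genes 10.8% and 54.7%), and against ribosomal protein mRNAs above 0 for 0 by edgeR and below 0 for 17 (all genes 1.37% and 78.5%).

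Genes that work with integrins inside the cell divided. Of 34 tested genes of the adhesion complex (35 listed), 16 higher and 8 lower were called after 24 h of THZ1 (47.1% and 23.5% of the list, beside 32.3% and 44.0% of all genes). Under other scalings there were 7 and 14 by library totals, where all genes gave 15.7% and 64.9%, and 0 and 24 against ribosomal protein mRNAs, where they gave 3.98% and 81.0%. The median on the TMM scale was 0.75, beside -0.37 for all genes. BCAM, a laminin receptor of the immunoglobulin family (2.34 ± 1.28 CPM in DMSO), and CD151, a tetraspanin that binds laminin-receptor integrins, rose on the log2 scale by 3.65 ± 0.53 and 2.40 ± 0.10. The adaptor CRK and the kinase SRC (32.3 ± 7.26 CPM in DMSO) fell, with log2 fold changes of -3.16 ± 0.12 and -2.54 ± 0.20, under all 5 scalings. At 4 h of THZ1 there were 10 higher and 3 lower (29.4% and 8.82% of the list, beside 16.9% and 25.1% of all genes). Of those, the adaptor BCAR1 and SRC fell by 2.83 ± 0.34 and 1.18 ± 0.17 on the log2 scale, and PARVA and CD151 rose on the log2 scale by 0.75 ± 0.23 and 0.61 ± 0.092. After 24 h of YKL-5-124 there were 4 higher and 2 lower (11.8% and 5.88% of the list, beside 8.92% and 12.7% of all genes). FERMT2 and LIMS2 rose on the log2 scale by 0.51 ± 0.11 and 1.34 ± 0.44, while FERMT1, the epithelial kindlin, and PTK2, the focal adhesion kinase, had -0.95 ± 0.11 and -0.30 ± 0.092 (above 0 against ribosomal protein mRNAs). PARVA lost its THZ1 4 h call on leaving out DMSO replicate 1 or 3 or THZ1 4 h replicate 2 or 3 (edgeR adjusted p 0.054 to 0.0848). LIMS2 lost its YKL-5-124 24 h call on leaving out DMSO replicate 1 or 3 or YKL-5-124 24 h replicate 3 (edgeR adjusted p 0.135 to 0.194), and its log2 value became 0.88 without YKL-5-124 24 h replicate 3. PTK2 lost its YKL-5-124 24 h call on leaving out DMSO replicate 1, 2 or 3 or YKL-5-124 24 h replicate 1 or 2 (edgeR adjusted p 0.0539 to 0.0994). BCAM and CD151 had no call at THZ1 24 h with ribosomal protein mRNAs. PARVA had no call at THZ1 4 h with library totals or ribosomal protein mRNAs, nor had CD151 with ribosomal protein mRNAs. LIMS2 had no call at YKL-5-124 24 h with only the groups compared fitted, nor had FERMT1 with ribosomal protein mRNAs, nor had PTK2 with upper-quartile factors, library totals, ribosomal protein mRNAs, only the groups compared fitted or no filter. At 4 h of YKL-5-124 edgeR called 0 of the list (3 higher and 0 lower at an unadjusted p under 0.05, and 1 higher by DESeq2).

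Of 20 tested matrix partners (33 listed), 13 higher and 1 lower were called at THZ1 24 h (65% and 5% of the list, beside 32.3% and 44.0% of all genes). Under other scalings there were 6 and 4 by library totals, where all genes gave 15.7% and 64.9%, and 0 and 10 against ribosomal protein mRNAs, where they gave 3.98% and 81.0%. The median on the TMM scale was 1.22, beside -0.37 for all genes. Fibronectin (FN1), the ligand of the alpha 5 chain (6.69 ± 3.62 CPM in DMSO), rose on the log2 scale by 3.07 ± 0.51 and agrin (AGRN), a heparan sulfate proteoglycan of basement membranes, by 2.92 ± 0.52. DDR2, a receptor kinase for fibrillar collagen (2.26 ± 0.259 CPM in DMSO), had -1.63 ± 0.28 after 24 h of THZ1 and 1.14 ± 0.21 after 24 h of YKL-5-124, and both calls held under all 5 scalings. After 4 h of THZ1 there were 3 higher and 1 lower (15% and 5% of the list, beside 16.9% and 25.1% of all genes). PAPLN (0.82 ± 0.29) and SDC1 (0.51 ± 0.11, below 0 against ribosomal protein mRNAs) rose and DDR2 fell (-0.93 ± 0.23). PAPLN lost its THZ1 4 h call on leaving out DMSO replicate 1, 2 or 3 or THZ1 4 h replicate 1 or 2 (edgeR adjusted p 0.0502 to 0.115). After 24 h of YKL-5-124 there were 3 higher and 2 lower (15% and 10% of the list, beside 8.92% and 12.7% of all genes). Thrombospondin 1 (THBS1) rose on the log2 scale by 0.85 ± 0.23, and the laminin-binding netrin NTN4 and the hyaluronan receptor CD44 had -1.52 ± 0.23 and -0.65 ± 0.18. THBS1 lost its YKL-5-124 24 h call on leaving out DMSO replicate 1 or 3 or YKL-5-124 24 h replicate 3 (edgeR adjusted p 0.067 to 0.0971), and its log2 value became 0.50 without YKL-5-124 24 h replicate 3. CD44 lost its YKL-5-124 24 h call on leaving out DMSO replicate 1 or 2 or YKL-5-124 24 h replicate 1 or 2 (edgeR adjusted p 0.0545 to 0.0811). FN1 and AGRN had no call at THZ1 24 h with ribosomal protein mRNAs. PAPLN had no call at THZ1 4 h with library totals, ribosomal protein mRNAs or no filter, nor had SDC1 with library totals or ribosomal protein mRNAs. THBS1 had no call at YKL-5-124 24 h with only the groups compared fitted, nor had CD44 with library totals or ribosomal protein mRNAs. At 4 h of YKL-5-124 edgeR called 0 of 20 (1 higher and 0 lower at an unadjusted p under 0.05, and 1 higher by DESeq2).

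Genes that make and process collagen were mostly called higher after 24 h of THZ1 on the TMM scale, and mostly not against ribosomal protein mRNAs. Of 28 tested (34 listed), 24 higher and 1 lower were called at 24 h (85.7% and 3.57% of the list, beside 32.3% and 44.0% of all genes). Under other scalings there were 17 and 6 by library totals, where all genes gave 15.7% and 64.9%, and 3 and 7 against ribosomal protein mRNAs, where they gave 3.98% and 81.0%. The median on the TMM scale was 1.98, beside -0.37 for all genes. P4HB, the beta subunit of prolyl 4-hydroxylase (233 ± 9.72 CPM in DMSO), rose on the log2 scale by 2.90 ± 0.10 and FKBP10, a collagen chaperone, by 3.02 ± 0.41, while SEC24D, a coat protein needed for collagen export (21.5 ± 1.73 CPM in DMSO), had -2.65 ± 0.20. At 4 h of THZ1 there were 15 higher and 1 lower (53.6% and 3.57% of the list, beside 16.9% and 25.1% of all genes), with P4HA2 at 0.77 ± 0.13, PCOLCE at 1.11 ± 0.37 and LOXL3 at -0.91 ± 0.31. PCOLCE lost its THZ1 4 h call on leaving out DMSO replicate 1 or 3 or THZ1 4 h replicate 3 (edgeR adjusted p 0.07 to 0.137). LOXL3 lost its THZ1 4 h call on leaving out DMSO replicate 1 or 2 or THZ1 4 h replicate 3 (edgeR adjusted p 0.057 to 0.128). After 24 h of YKL-5-124 there were 4 higher and 2 lower (14.3% and 7.14% of the list, beside 8.92% and 12.7% of all genes). LOXL4 and P4HA1 rose on the log2 scale by 1.08 ± 0.18 and 1.04 ± 0.15, and CRTAP and PLOD3 had -0.70 ± 0.13 and -0.31 ± 0.11 (above 0 against ribosomal protein mRNAs). PLOD3 lost its YKL-5-124 24 h call on leaving out DMSO replicate 1, 2 or 3 or YKL-5-124 24 h replicate 1 or 2 (edgeR adjusted p 0.0828 to 0.191). FKBP10 had no call at THZ1 24 h with ribosomal protein mRNAs. P4HA2 had no call at THZ1 4 h with ribosomal protein mRNAs, nor had PCOLCE with library totals or ribosomal protein mRNAs, nor had LOXL3 with only the groups compared fitted. CRTAP had no call at YKL-5-124 24 h with ribosomal protein mRNAs, nor had PLOD3 with upper-quartile factors, library totals, ribosomal protein mRNAs, only the groups compared fitted or no filter. At 4 h of YKL-5-124 edgeR called 0 of 28 (2 higher and 0 lower at an unadjusted p under 0.05, and 0 higher by DESeq2).

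Among 18 tested matrix proteases and inhibitors (34 listed), 13 higher and 2 lower were called at THZ1 24 h (72.2% and 11.1% of the list, beside 32.3% and 44.0% of all genes). Under other scalings there were 9 and 4 by library totals, where all genes gave 15.7% and 64.9%, and 2 and 9 against ribosomal protein mRNAs, where they gave 3.98% and 81.0%. TIMP2, a metalloproteinase inhibitor (27.8 ± 21.5 CPM in DMSO), rose on the log2 scale by 3.30 ± 0.69 and the membrane protease ADAM9 by 2.70 ± 0.10, while PLAT and ADAM10 had -0.53 ± 0.13 and -0.29 ± 0.13 (above 0 against RLE and upper-quartile factors). ADAM10 lost its THZ1 24 h call on leaving out DMSO replicate 1, 2 or 3 or THZ1 24 h replicate 1, 2 or 3 (edgeR adjusted p 0.0585 to 0.276), and its log2 value became -0.17 without THZ1 24 h replicate 1. With THZ1 at 4 h PLAU, a plasminogen activator, had -0.62 ± 0.12, while ADAM9 and SERPINE2 rose on the log2 scale by 0.71 ± 0.093 and 0.70 ± 0.15 (5 higher and 2 lower: 27.8% and 11.1% of the list, beside 16.9% and 25.1% of all genes). After 24 h of YKL-5-124 there were 2 higher and 1 lower (11.1% and 5.56% of the list, beside 8.92% and 12.7% of all genes). MMP15 rose on the log2 scale by 1.74 ± 0.33 and SERPINE2 by 0.83 ± 0.15. TIMP2 had no call at THZ1 24 h with ribosomal protein mRNAs, nor had PLAT with RLE, upper-quartile factors or DESeq2, nor had ADAM10 with RLE, upper-quartile factors or only the groups compared fitted. ADAM9 and SERPINE2 had no call at THZ1 4 h with ribosomal protein mRNAs.

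Of the 44 tested genes, 9 had a mean under 1 CPM: ITGA10, ITGA2B, ITGAL, COL1A2, COL4A1, COL4A4, COL5A3, COL10A1 and COL11A2. ITGAL, the alpha chain of the leukocyte integrin LFA-1, had no count in DMSO, 8, 3 and 9 at THZ1 24 h and 28, 1 and 1 at YKL-5-124 24 h. Against a floor of 3 counts over the DMSO group, the ratio of its summed scaled counts was 17.4 at THZ1 24 h and 9.25 at YKL-5-124 24 h. No interval is given, so these ratios are no lower bounds. Of the YKL-5-124 counts, 28 came from replicate 1, so that ratio rests on 1 library. ITGAL reached the filter's minimum in 2 libraries of THZ1 24 h and 1 of YKL-5-124 24 h only, so this is a description and no test is given. COL11A2, a minor fibrillar chain of cartilage, had 9, 10 and 4 counts in DMSO, 12, 7 and 8 at THZ1 24 h and 39, 52 and 55 at YKL-5-124 24 h. COL11A2 too passed the filter only through the groups in which it was called higher, and no test is given. ITGA10, a collagen receptor chain of cartilage, had 14, 20 and 16 counts in DMSO and 2, 0 and 4 at YKL-5-124 24 h, a log2 fold change of -3.07 ± 0.65 (SE, edgeR adjusted p = 0.00362). COL4A4, a chain of kidney type IV collagen, was called at THZ1 24 h (1.81 ± 0.65, below 0 against ribosomal protein mRNAs). COL4A4 lost its THZ1 24 h call on leaving out DMSO replicate 1 or THZ1 24 h replicate 2 (edgeR adjusted p 0.062 to 0.0688). COL4A4 had no call at THZ1 24 h with library totals or ribosomal protein mRNAs. On the TMM scale edgeR with group alone called ITGA2B, COL5A3, COL10A1 and COL1A2 in no comparison with DMSO, while DESeq2 called COL1A2 higher at YKL-5-124 24 h.

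The 38 genes that were not tested had 89 counts at most in all 15 libraries together. They were the integrin chains ITGA9, ITGAM, ITGA4, ITGA11, ITGAX, ITGAD, ITGA8, ITGB8, ITGB7 and ITGB6, the laminin chains LAMA1, LAMA4 and LAMB4, and the collagen chains COL11A1, COL9A2, COL4A3, COL6A2, COL6A3, COL26A1, COL9A3, COL8A2, COL14A1, COL8A1, COL2A1, COL23A1, COL19A1, COL25A1, COL4A5, COL4A6, COL21A1, COL22A1, COL20A1, COL6A6, COL24A1, COL9A1, COL15A1, COL28A1 and COL6A5. The highest were LAMA1 (89 counts), ITGA9 (83) and COL11A1 (77), and LAMB4, COL6A5, COL15A1 and COL28A1 had none. They did not pass the filter on low counts, and no change was tested in them.

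Libraries of 1 group differed along an axis linked to transcript length, and many of these genes moved with it. Each library's slope of expression on exon length ran from -0.306 to 0.214, with DMSO replicate 2, THZ1 4 h replicate 2 and YKL-5-124 24 h replicate 3 highest in their groups and THZ1 24 h lowest as a group. Of the 35 genes averaging 1 CPM or more, 27 had a correlation over 0.5 and 2 (ITGAE and LAMA2) under -0.5 between their deviation from the group mean and that slope over 15 libraries, as a description, since library and depth are shared. The highest was COL12A1 (0.983) and ITGAE was lowest (-0.961). The median spread within groups was 0.365 (SD, log2) in these genes and 0.241 in all genes of that level. With the slope as a covariate the calls were 33 higher and 4 lower (all genes 35.0% and 46.9%) at THZ1 24 h, 22 higher and 2 lower (all genes 28.3% and 30.8%) at THZ1 4 h, 1 higher and 2 lower (all genes 2.13% and 5.05%) at YKL-5-124 4 h and 12 higher and 10 lower (all genes 17.9% and 24.5%) at YKL-5-124 24 h, where LAMA5, LAMB2 and LAMC1 were among those called higher. What sets this axis was not tested.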

How the data were processed

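The deposited values are raw counts of 58676 genes in 15 libraries, which the authors had not normalized. The submitters' processing notes name the GRCh38 build, featureCounts 1.5.0-p3, STAR 2.6.1d and DESeq2 1.24.0. No strand setting was given in the sources, so reads of genes that overlap on opposite strands cannot be told apart, as for 11 of the 44 genes tested (1 more overlaps on its own strand). Symbols, positions and exon lengths came from the table, and promoter windows from RefSeq (GRCh38.p14, 58 of 82 genes matched).

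Groups came from the sample labels. Of 58676 genes, 14461 passed filterByExpr (minimum count 10, minimum total 15), with 99.9% of counts. Tests were run in R 4.3.3 with the quasi-likelihood method of edgeR 4.0.16 on all 15 libraries with group as the factor, TMM scaling and Benjamini-Hochberg adjustment over all genes tested (threshold 0.05), tested on simulated data. Alternatives were RLE, upper-quartile, library-total and ribosomal-protein (87 genes) scaling, DESeq2 1.42.0, no filter, only the groups compared, the replicate block, a length-slope covariate and each library left out. All library pairs within a group differed by more than sampling noise (chi-square over degrees of freedom, 4.28 to 82.6). Exact intervals are at the 95% level and cover counting error only.

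The rule named every tested member with a mean of at least 1 CPM; values per library were given for the 3 largest called rises and falls per comparison with DMSO, the 2 highest members per class and COL4A1 and COL4A2, and for some others chosen after their values were seen. Up to 2 called genes per direction were named from each of the 4 partner lists. Results of a few genes are not reported here by name, though counts include them. The members and lists were chosen with earlier results of these data known.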

Additional observations from a re-analysis of the deposited data

Results flagged for a closer look

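The difference between the compounds changed with time for the following genes whose mean reached 1 CPM, by edgeR's test of the interaction (THZ1 minus YKL-5-124 at 24 h, less the same at 4 h, in log2, with SE). It was above 0 for all of them but ITGA5. The integrin chains were ITGA1 1.69 ± 0.32, ITGA3 1.87 ± 0.37, ITGA6 0.77 ± 0.22, ITGAE 1.81 ± 0.28, ITGAV 1.40 ± 0.17, ITGB1 2.30 ± 0.15, ITGB2 2.62 ± 0.81 and ITGB5 1.47 ± 0.16. The laminin chains were LAMA3 1.44 ± 0.50, LAMB1 2.59 ± 0.34, LAMB2 2.0 ± 0.36, LAMB3 2.47 ± 0.16, LAMC1 1.47 ± 0.28 and LAMC3 2.40 ± 0.55. The collagen chains were COL12A1 2.06 ± 0.67, COL13A1 1.46 ± 0.40, COL17A1 2.54 ± 0.42, COL18A1 2.46 ± 0.95, COL1A1 2.94 ± 1.0 and COL6A1 2.24 ± 0.53. The adjusted p ran from 7.29e-09 for ITGB1 to 0.0372 for COL18A1. ITGA5 stood below 0, at -1.49 ± 0.27 (edgeR adjusted p = 0.000204), and it was the one gene of these called the same way under all 5 scalings; the values that turned are given with the processing. COL18A1 lost its interaction call on leaving out THZ1 4 h replicate 1 or 3, THZ1 24 h replicate 2 or 3, YKL-5-124 4 h replicate 2 or 3, YKL-5-124 24 h replicate 1 or 2 (edgeR adjusted p 0.0666 to 0.11). COL1A1 lost its interaction call on leaving out THZ1 24 h replicate 2 or YKL-5-124 4 h replicate 3 (edgeR adjusted p 0.0704 to 0.0812). LAMA3 lost its interaction call on leaving out THZ1 4 h replicate 1, THZ1 24 h replicate 2 or 3, YKL-5-124 4 h replicate 2 or 3, YKL-5-124 24 h replicate 1 or 2 (edgeR adjusted p 0.0501 to 0.0581).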

How the results depend on the processing

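A value is given as turned where its sign changed and it was called before the change, after it or both. THZ1 4 h against DMSO turned against ribosomal protein mRNAs for LAMB3 -0.093 and SDC1 -0.0018. THZ1 24 h against DMSO turned against ribosomal protein mRNAs for COL13A1 -0.35, COL17A1 -0.93, COL5A1 -0.34, COL5A2 -2.15, COL7A1 -0.42, ITGA2 -1.97, ITGA6 -1.39, ITGA7 -0.36, ITGB4 -0.68, ITGB5 -0.034, LAMA3 -0.24, LAMA5 -0.64, LAMC1 -0.020 and COL4A4 -0.36. YKL-5-124 24 h against DMSO turned against ribosomal protein mRNAs for ITGAE 0.52, LAMB3 0.039, PLOD3 0.28 and PTK2 0.30. THZ1 24 h against YKL-5-124 24 h turned against ribosomal protein mRNAs for COL12A1 -0.14, COL13A1 -1.32, COL16A1 -0.75, COL1A1 -0.87, COL4A1 -0.57, COL6A1 -0.090, COL7A1 -2.14, ITGA1 -0.73, ITGA2 -2.24, ITGA3 -0.50, ITGA6 -1.36, ITGA7 -1.53, ITGAE -0.44, ITGAV -0.80, ITGB2 -0.46, ITGB3 -1.94, ITGB4 -1.19, ITGB5 -0.86, LAMA2 -2.71, LAMA3 -1.07, LAMA5 -2.22, LAMB2 -0.43 and LAMC1 -0.79. The COL4A1 call on the TMM scale carries no weight, as given above. The compound by time interaction turned against ribosomal protein mRNAs for COL12A1 -0.42, COL13A1 -0.93, COL6A1 -0.18, ITGA1 -0.73, ITGA3 -0.52, ITGA6 -1.62, ITGAE -0.46, ITGAV -0.98, ITGB1 -0.070, ITGB5 -0.90, LAMA3 -0.99, LAMB2 -0.40 and LAMC1 -0.93. With library totals, turned values for THZ1 24 h against DMSO were COL5A2 -1.07, ITGA2 -0.90 and ITGA6 -0.33. With library totals, turned values for THZ1 24 h against YKL-5-124 24 h were ITGA2 -0.74, ITGA7 -0.060, ITGB3 -0.44 and LAMA2 -1.26. With library totals, turned values for the compound by time interaction were ITGA6 -0.27. ADAM10 at THZ1 24 h turned to 0.033 with RLE, 0.10 with upper-quartile factors and 0.034 in DESeq2. Numbers of members called follow for settings in which the number differed over 1.5 times from that of the fit used above. Where no share of all genes is given for such a count, it describes the setting only. With library totals the members called were 3 higher and 2 lower for THZ1 4 h against DMSO, 8 lower for THZ1 24 h against DMSO, 4 higher and 2 lower for THZ1 4 h against YKL-5-124 4 h, 17 higher and 8 lower for THZ1 24 h against YKL-5-124 24 h, 9 lower for THZ1 24 h against THZ1 4 h, 3 lower for YKL-5-124 24 h against YKL-5-124 4 h, 7 higher and 7 lower for the interaction. Against ribosomal protein mRNAs the members called were 0 higher and 4 lower for THZ1 4 h against DMSO, 2 higher and 12 lower for THZ1 24 h against DMSO, 11 higher and 2 lower for YKL-5-124 24 h against DMSO, 1 higher and 2 lower for THZ1 4 h against YKL-5-124 4 h, 1 higher and 19 lower for THZ1 24 h against YKL-5-124 24 h, 0 higher and 10 lower for THZ1 24 h against THZ1 4 h, 9 higher and 0 lower for YKL-5-124 24 h against YKL-5-124 4 h, 0 higher and 17 lower for the interaction. With no filter the members called were 21 higher for THZ1 4 h against DMSO, 2 higher and 1 lower for YKL-5-124 4 h against DMSO, 8 higher for YKL-5-124 24 h against DMSO, 2 lower for THZ1 24 h against YKL-5-124 24 h. With the length slope as covariate the members called were 22 higher and 2 lower for THZ1 4 h against DMSO, 1 higher and 2 lower for YKL-5-124 4 h against DMSO, 12 higher for YKL-5-124 24 h against DMSO, 18 higher and 1 lower for THZ1 4 h against YKL-5-124 4 h, 2 lower for THZ1 24 h against YKL-5-124 24 h, 5 higher and 10 lower for YKL-5-124 24 h against YKL-5-124 4 h. With RLE the members called were 1 lower for THZ1 24 h against THZ1 4 h. With upper-quartile factors the members called were 0 lower for THZ1 24 h against THZ1 4 h. In DESeq2 the members called were 1 lower for THZ1 24 h against THZ1 4 h. Leaving out 1 library at a time gave ranges of 7 to 17 for higher, THZ1 4 h against DMSO, 1 to 2 for lower, THZ1 4 h against DMSO, 2 to 5 for higher, YKL-5-124 24 h against DMSO, 1 to 2 for lower, THZ1 24 h against YKL-5-124 24 h, 1 to 2 for lower, THZ1 24 h against THZ1 4 h, 1 to 2 for lower, the interaction. For members higher at THZ1 24 h the range was 27 to 32. With the replicate number as a block, 12 gene results gained a call and none lost one (18 higher and 1 lower at THZ1 4 h, 33 higher and 4 lower at THZ1 24 h). No share of all genes is given for the leave-one-out and block counts, so they describe the setting only. The block is no pairing: 18 of 30 same-numbered pairs had a correlation over 0.1 (-0.39 to 0.45), and 8 of 15 libraries correlated best with their own number. DESeq2 gave another call for 8 gained and 3 lost gene results, and fitting only the groups compared for 2 and 16. Members under about 1 CPM are limited by depth.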
